A study of Homo sapiens with 12 samples.

Results

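Transcripts of the unfolded protein response and of endoplasmic reticulum (ER) degradation were examined in A172 cells that overexpress hHSS1. A172 is an adherent line established from a human glioblastoma, and hHSS1 is listed under its present symbol EMC10, a subunit of the ER membrane complex, which inserts membrane proteins. The genes were taken from a list of 40 symbols covering sensors, transcription factors, chaperones and degradation factors. Of these, 39 had a probe set naming a single gene, among 18417 genes in all, and PDIA3 was left out because its probe set names several. All 39 are described below.

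The study profiled 4 groups of 3 cultures each on GeneChip Human Gene 1.0 ST arrays, harvested 4 days after plating. Clone 8 and clone 7 carry pcDNA3.1 with hHSS1 and a C-terminal His tag, were stably transfected and are kept in G-418. The mock line was stably transfected with the empty pcDNA3.1, and wild-type cells were not transfected. Each clone and each control is 1 cell line, so the p-values measure the spread between cultures within lines, estimated jointly over the 4 groups. They do not measure how far separately derived lines differ. Since whole cultures were read, a change in some cells and a smaller change in all of them cannot be told apart.

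Unfolded proteins in the ER lumen are sensed by 3 membrane proteins. IRE1 (gene ERN1) splices XBP1 mRNA, PERK (EIF2AK3) slows translation and favours synthesis of ATF4, and ATF6 is cut in the Golgi to release a transcription factor. Together these branches raise the genes of ER chaperones, of folding enzymes and of ER-associated degradation, which returns misfolded proteins to the cytosol for the proteasome. Lasting stress adds the ATF4 target DDIT3 (CHOP), linked to cell death.

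The level of a gene is the deposited log2 value of its probe set. A gene was called where its limma p-value, adjusted over all 18417 genes by the Benjamini-Hochberg method, was under 0.05, and the study's fold limit of 1.5 (0.58 on the log2 scale) was counted beside it. The mean level of every group was at least 8.80 for every gene of the list, above the lower quartile of every array (7.00 to 7.12).

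The overexpressed gene was read first. EMC10 had log2 levels of 12.13, 12.18 and 11.75 in clone 8 and of 11.57, 11.72 and 12.30 in clone 7, against 9.20, 9.33 and 9.51 in mock and 11.13, 10.43 and 10.69 in wild-type cells. Its log2 difference between both clones and mock was 2.59 ± 0.18 (SE, limma adjusted p = 7.82e-06), or 6.04-fold. Between both clones and wild-type cells it was 1.19 ± 0.18 (limma adjusted p = 0.0013), or 2.28-fold. Mock lay below wild-type cells by a log2 difference of -1.40 ± 0.20 (limma adjusted p = 0.00285), so the clones were also set against wild-type cells.

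On 2 arrays the labels and the values disagreed. Over all genes, the array labelled clone 8 replicate 3 correlated at 0.9876 to 0.9883 with the other clone 8 arrays and at 0.9963 to 0.997 with clone 7 replicates 1 and 2. The array labelled clone 7 replicate 3 correlated at 0.9907 to 0.9913 with the other clone 7 arrays and at 0.9948 to 0.9983 with clone 8 replicates 1 and 2. CCL2, a chemokine gene named here after its values were seen, had log2 levels of 8.36, 8.49 and 12.17 in clone 8 and of 12.03, 12 and 8.32 in clone 7. The array labelled clone 8 replicate 3 lay nearer to the other clone in 28 of the 39 genes and in 55.8% of all genes, and the array labelled clone 7 replicate 3 in 28 of the 39 and in 63.3% of all genes. An exchange of labels and another difference between these cultures cannot be told apart, and the labels were kept as given. Every comparison was therefore made with all 12 arrays and, as an alternative chosen after seeing the data, with 10 arrays, both replicate 3 clone arrays left out. The 10-array values rest on 2 cultures a clone, picked for their likeness, so their spread is smaller by construction and their p-values are too small. EMC10 differed between both clones and mock by 2.55 ± 0.14 (log2, SE) with 10 arrays.

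**Figure D1:**
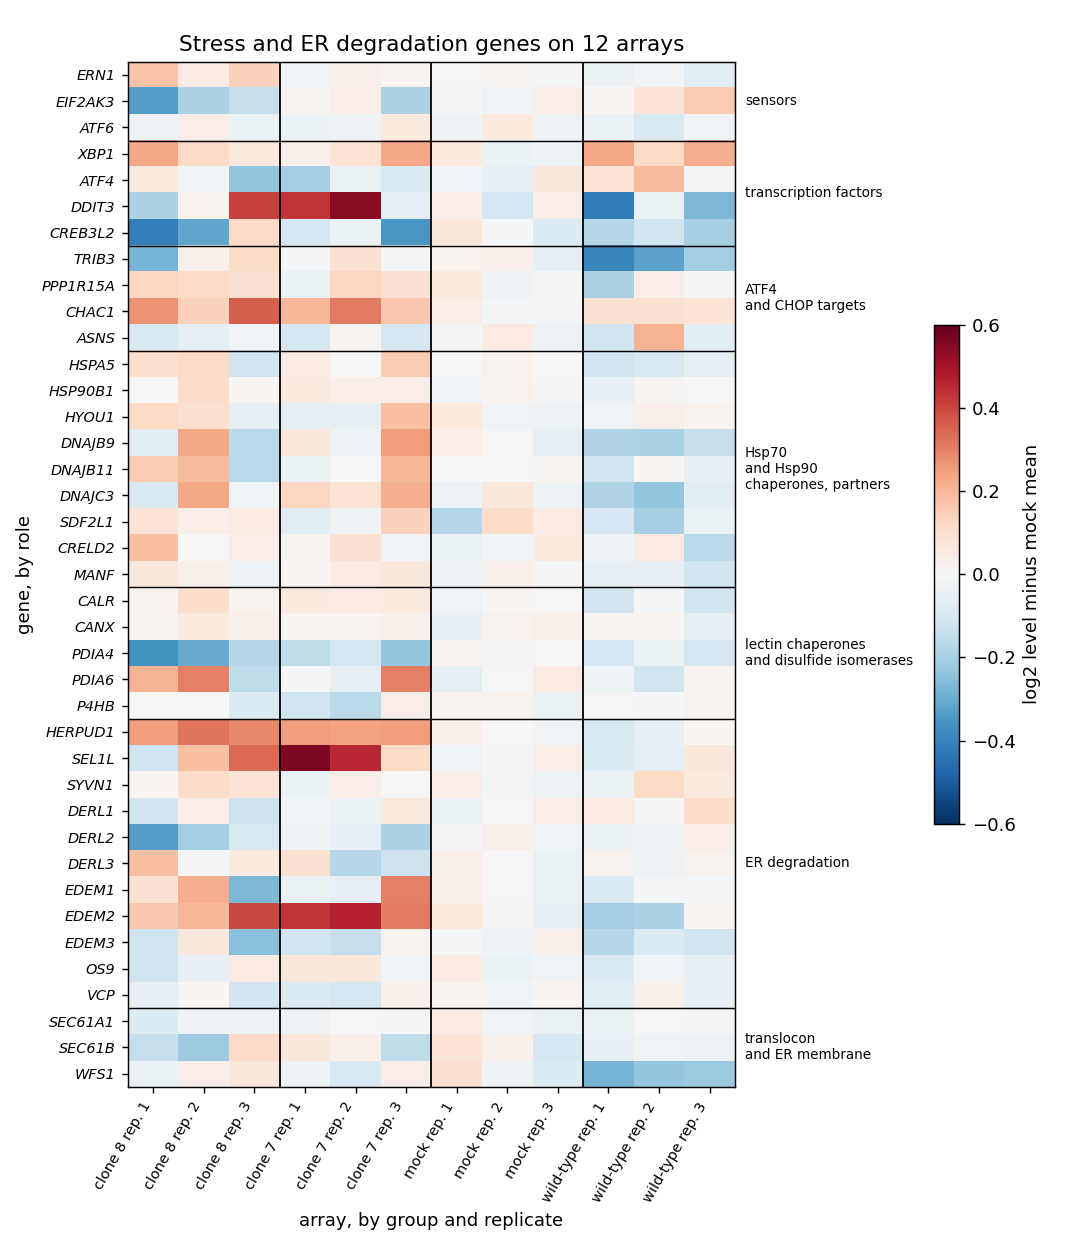
Level of each of the 39 genes (rows, grouped by role) on each of the 12 arrays (columns, by group and replicate), as log2 level minus the mean of the 3 mock arrays. HERPUD1, EDEM2 and CHAC1 are red on all 6 clone arrays and PDIA4 is blue on them, while DDIT3, SEL1L and CREB3L2 on the replicate 3 arrays resemble the other clone.

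Both clones were set against mock to ask which stress genes differ where hHSS1 is overexpressed. A few were called, beside 6.38% of all genes, and none reached the 1.5-fold limit. The ER degradation genes HERPUD1 and EDEM2 rose 1.2-fold and 1.25-fold, the glutathione-degrading enzyme gene CHAC1 rose 1.18-fold, and the disulfide isomerase gene PDIA4 fell 1.16-fold. The remaining 35 genes, among them HSPA5, DDIT3, XBP1 and ATF4, were not called.

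These 4 calls were 10.3% of the 39 genes, beside 6.38% of all genes tested in this comparison (2.87% higher, 3.51% lower). At an unadjusted p under 0.05 there were 6 of 39 (15.4%), against 20.0% of all genes. The log2 differences ran between -0.22 and 0.33 with a median of 0.03, the median of all genes being 0.01, and 25 of 39 were positive. None of the 39 passed the 1.5-fold limit, which 0.728% of all genes did. The count of 4 calls fell to 1 on leaving out any 1 of the 3 mock arrays and to 2 without clone 7 replicate 1. On 4 genes (HERPUD1, EDEM2, CHAC1 and CALR) all 6 clone arrays lay above the 3 mock arrays and on PDIA4 and DERL2 they lay below. Such a separation was seen in 15.4% of the 39 genes and in 14.2% of all genes. Against all 6 control arrays it was seen in 10.3% of the 39 genes (the same 4 above, 0 below) and in 6.81% of all genes.

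**Figure D2:**
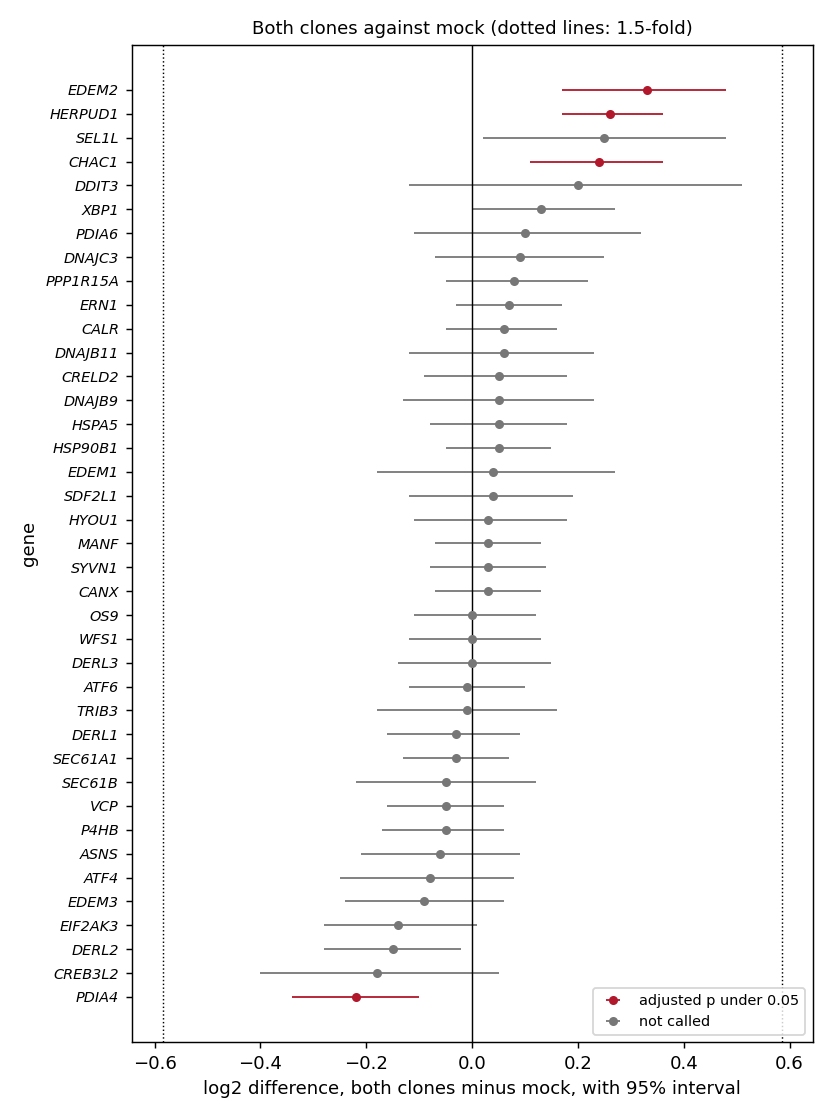
Log2 difference between both clones and mock for each of the 39 genes (vertical axis), with its 95% interval from limma over 12 arrays, and dotted lines at 1.5-fold. Red points mark the 4 called genes, and every point lies between -0.22 and 0.33.

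HERPUD1 encodes an ER membrane protein that recruits factors of the degradation machinery. Its log2 level was 11.96, 12.03 and 12 in clone 8 and 11.96, 11.95 and 11.96 in clone 7, against 11.74, 11.71 and 11.69 in mock and 11.62, 11.66 and 11.72 in wild-type cells. All clone arrays lay above all control arrays, and the replicate 3 arrays did not stand apart. The log2 difference between both clones and mock was 0.26 ± 0.05 (SE, 95% interval 0.17 to 0.36, limma adjusted p = 0.00544), and it was 0.26 ± 0.05 (limma adjusted p = 0.00476) with 10 arrays. It was called in each clone alone, with log2 differences of 0.28 ± 0.05 in clone 8 (limma adjusted p = 0.0119) and 0.25 ± 0.05 in clone 7 (limma adjusted p = 0.0273), and against wild-type cells (0.31 ± 0.05, limma adjusted p = 0.00131). The call in clone 8 alone was lost with only the groups compared in the fit and without mock replicate 2 or 3. The call in clone 7 alone was lost with the replicate block and without any 1 mock array or clone 7 replicate 1 or 2.

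EDEM2, which starts the trimming of mannose that marks glycoproteins for degradation, had the largest log2 difference of the 39 genes. Its log2 level was 10.94, 10.98 and 11.18 in clone 8 and 11.21, 11.24 and 11.09 in clone 7, against 10.84, 10.77 and 10.73 in mock and 10.58, 10.59 and 10.79 in wild-type cells. All clone arrays lay above all control arrays, and clone 8 replicates 1 and 2 were the lowest of the clone arrays. Between both clones and mock the log2 difference was 0.33 ± 0.07 (SE, 95% interval 0.17 to 0.48, limma adjusted p = 0.0169), with 0.40 ± 0.08 in clone 7 alone (limma adjusted p = 0.0206). The call was lost on leaving out any 1 of the 3 mock arrays (limma adjusted p 0.0554 to 0.0958).

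CHAC1, a target of ATF4 and CHOP that breaks down glutathione, had a log2 level of 9.79, 9.66 and 9.88 in clone 8 and of 9.72, 9.83 and 9.68 in clone 7. The controls were at 9.56, 9.51 and 9.51 in mock and at 9.61, 9.61 and 9.60 in wild-type cells. All clone arrays were above all control arrays, clone 8 replicate 2 only just. The log2 difference between both clones and mock was 0.24 ± 0.06 (SE, 95% interval 0.11 to 0.36, limma adjusted p = 0.0292), and it was no longer called with only the groups compared in the fit (limma adjusted p = 0.0792). It also lost its call on leaving out any 1 mock array (limma adjusted p 0.096 to 0.147) or replicate 1 or 2 of clone 7 (0.0584 and 0.0674).

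PDIA4 encodes a disulfide isomerase of the ER lumen. Its log2 level was 11.96, 12.02 and 12.15 in clone 8 and 12.17, 12.22 and 12.09 in clone 7, against 12.34, 12.31 and 12.32 in mock and 12.22, 12.28 and 12.22 in wild-type cells. The clones were below every mock array but reached the wild-type range. The log2 difference between both clones and mock was -0.22 ± 0.05 (SE, 95% interval -0.34 to -0.10, limma adjusted p = 0.0319). The call was lost with only the groups compared in the fit (limma adjusted p = 0.0802) and on leaving out any 1 mock array (0.116 to 0.143), clone 7 replicate 1 (0.0674) or wild-type replicate 3 (0.0526), the range over all alternatives being 0.0046 to 0.143.

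**Figure D3:**
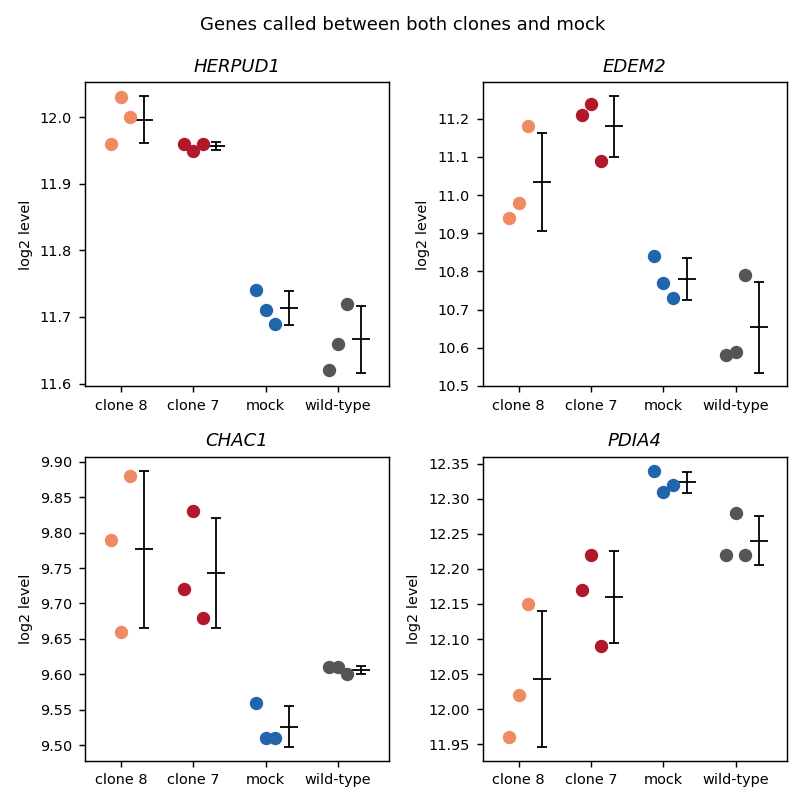
Log2 level of HERPUD1, EDEM2, CHAC1 and PDIA4 (vertical axes) on each array by group (horizontal axes), with a point per array and the mean and SD of 3 arrays as a bar. HERPUD1 sits at 11.95 to 12.03 in the clones and at 11.62 to 11.74 in the controls.

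The regulatory sequence near the start of each gene was read for the response elements that define the pathway, to show what the called and uncalled genes carry. RefSeq promoters (GRCh38.p14, 250 bases before to 50 after the start) were matched for 37 of the 39 genes, and 4 motifs were searched on both strands. The ER stress response element, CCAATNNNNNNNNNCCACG, was in 0.0806% of 27305 promoters, and among the 37 it was in XBP1, HSPA5, HSP90B1, CRELD2, CALR and CANX. Its second form, ATTGGNCCACG, was in 0.0549% of promoters, among them HYOU1, SDF2L1 and HERPUD1. The XBP1 site TGACGTGG was in 0.795%, among them HYOU1 (overlapping its second-form element) and VCP. The amino acid response element bound by ATF4, written here as TTNCATCA, was in 3.67%, among them CHAC1, ASNS and HERPUD1. The following stretches are written along the strand of the gene, with the matches in capitals.
HERPUD1: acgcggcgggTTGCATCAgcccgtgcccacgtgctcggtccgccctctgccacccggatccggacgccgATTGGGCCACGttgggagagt
CHAC1: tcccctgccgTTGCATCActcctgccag
ASNS: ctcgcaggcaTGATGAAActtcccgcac
HSPA5: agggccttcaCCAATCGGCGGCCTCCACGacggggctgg
XBP1: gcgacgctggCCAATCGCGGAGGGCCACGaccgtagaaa

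The HERPUD1 stretch (chr16:56931956-56932045, plus strand) holds an amino acid response element 176 to 169 bases before the start and a second-form stress element 117 to 107 bases before it. The CHAC1 stretch (chr15:40953252-40953279, plus strand) holds the same 8 letters 209 to 202 bases before its start. In ASNS (chr7:97872459-97872486, minus strand) the match runs on the opposite strand to the gene, 68 to 61 bases before the start. HSPA5 (chr9:125241381-125241419, minus strand) and XBP1 (chr22:28800593-28800631, minus strand) carry the full stress element 66 to 48 and 52 to 34 bases before their starts. The called genes HERPUD1 and CHAC1 held at least 1 motif in this window, as did uncalled genes such as HSPA5, XBP1 and ASNS. In EDEM2 and PDIA4 these letters were not found there. Of the 6 genes with the full stress element, limma called 0 between both clones and mock with 12 arrays, beside 6.38% of all genes. With 10 arrays the count was also 0, beside 13.1% of all genes. At an unadjusted p under 0.05 with 12 arrays it was 0, the share of all genes being given above. Counts of 0 among 6 genes do not set them apart from all genes.

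The 3 sensors were not called. EIF2AK3 had log2 levels of 10.08, 10.22 and 10.27 in clone 8 and of 10.43, 10.45 and 10.22 in clone 7, against 10.40, 10.39 and 10.45 in mock and 10.42, 10.49 and 10.56 in wild-type cells. The replicate 3 array of clone 7 was lower than its other arrays, and clone 7 replicates 1 and 2 lay within the control range. The log2 differences of the 3 sensors between both clones and mock ran between -0.14 (EIF2AK3) and 0.07 (ERN1), with ATF6 at -0.01.

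The transcription factor genes were not called either. XBP1 had log2 levels of 11.20, 11.09 and 11.03 in clone 8 and 11.00, 11.05 and 11.20 in clone 7, against 11.03, 10.93 and 10.94 in mock and 11.20, 11.09 and 11.19 in wild-type cells. The clones overlapped both controls, and mock held the lowest values. Its log2 difference between both clones and mock was 0.13 ± 0.06 (SE, limma adjusted p = 0.255). A level per gene does not separate the spliced from the unspliced form of XBP1, nor does it show the amount of ATF4 protein, which is set by translation.

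ATF4 had log2 levels of 12.07, 11.99 and 11.78 in clone 8 and 11.80, 11.97 and 11.92 in clone 7, against 11.99, 11.95 and 12.08 in mock and 12.09, 12.20 and 12 in wild-type cells. The groups overlapped, with a log2 difference between both clones and mock of -0.08 ± 0.07 (SE, 95% interval -0.25 to 0.08). A second ATF4 probe set gave 0.04. DDIT3 had the widest range of the 39 genes over the clone arrays. Its log2 level was 9.88, 10.09 and 10.48 in clone 8 and 10.50, 10.61 and 10.01 in clone 7, against 10.11, 9.97 and 10.11 in mock and 9.65, 10.03 and 9.80 in wild-type cells. High and low values were found under both clone labels, and the log2 difference between both clones and mock was 0.20 ± 0.15 (SE, 95% interval -0.12 to 0.51, limma adjusted p = 0.516).

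Among the ATF4 and CHOP targets, CHAC1 was called and the other 3 were not. TRIB3, a pseudokinase that restrains AKT and ATF4, had log2 levels of 9.24, 9.55 and 9.63 in clone 8 and 9.51, 9.61 and 9.51 in clone 7, against 9.54, 9.55 and 9.46 in mock and 9.13, 9.20 and 9.31 in wild-type cells. The mock values lay among those of the clones, and of the transfected cultures only clone 8 replicate 1 came down to the wild-type range. ASNS, the asparagine synthetase gene, had log2 levels of 9.24, 9.27 and 9.31 in clone 8 and 9.23, 9.35 and 9.23 in clone 7, against 9.32, 9.38 and 9.30 in mock and 9.21, 9.54 and 9.26 in wild-type cells. All groups overlapped there. The log2 differences between both clones and mock were -0.01 ± 0.08 for TRIB3, -0.06 ± 0.07 for ASNS and 0.08 ± 0.06 (SE) for PPP1R15A, which encodes the phosphatase subunit GADD34 that restores translation.

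The Hsp70 and Hsp90 chaperones of the lumen and their partners moved little. None of the 9 was called, beside 6.38% of all genes. At an unadjusted p under 0.05 the count was also 0, the share of all genes being given above. Counts of 0 among 9 genes do not set the chaperones apart from all genes. Their log2 differences between both clones and mock were all positive but small, between 0.03 (HYOU1 and MANF) and 0.09 (DNAJC3), with a median of 0.05. HSPA5 (BiP), the main Hsp70 of the ER, had log2 levels of 13.85, 13.87 and 13.63 in clone 8 and 13.80, 13.75 and 13.90 in clone 7, against 13.75, 13.77 and 13.75 in mock and 13.63, 13.66 and 13.69 in wild-type cells. The clones spanned the mock values, with a log2 difference of 0.05 ± 0.06 (SE, 95% interval -0.08 to 0.18). DNAJB9, a BiP partner and a target of spliced XBP1, had log2 levels of 8.90, 9.20 and 8.81 in clone 8 and 9.04, 8.94 and 9.22 in clone 7, against 9.01, 8.97 and 8.92 in mock and 8.79, 8.78 and 8.83 in wild-type cells. It differed between both clones and mock by 0.05 ± 0.08 (log2, SE, 95% interval -0.13 to 0.23).

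Of the 5 lectin chaperones and disulfide isomerases measured, PDIA4 fell and the others were not called. CALR (calreticulin) lay at log2 levels of 13.49, 13.58 and 13.49 in clone 8 and 13.53, 13.52 and 13.53 in clone 7, against 13.45, 13.48 and 13.47 in mock and 13.36, 13.46 and 13.36 in wild-type cells. Although no clone array reached down to a control array, the log2 difference between both clones and mock was only 0.06 ± 0.05 (SE, limma adjusted p = 0.557). CANX (calnexin), P4HB and PDIA6 had log2 differences of 0.03, -0.05 and 0.10.

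Of the 11 ER degradation genes, HERPUD1 and EDEM2 rose and 9 were not called. SEL1L, the adaptor of the ubiquitin ligase HRD1, had log2 levels of 10.66, 10.96 and 11.12 in clone 8 and 11.34, 11.23 and 10.89 in clone 7, against 10.76, 10.77 and 10.82 in mock and 10.70, 10.72 and 10.85 in wild-type cells. Of the clone arrays, only clone 8 replicate 1 did not lie above all controls. The log2 difference between both clones and mock was 0.25 ± 0.11 (SE, limma adjusted p = 0.21), and it was 0.27 ± 0.07 (limma adjusted p = 0.0349) with 10 arrays. SYVN1, which encodes HRD1 itself, differed by 0.03 on the log2 scale, and the retrotranslocation channel genes DERL1, DERL2 and DERL3 by -0.03, -0.15 and 0.00. EDEM1 and EDEM3, relatives of EDEM2, differed by 0.04 and -0.09, the lectin gene OS9 by 0.00 and VCP, the ATPase that extracts substrates, by -0.05.

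The translocon genes SEC61A1 and SEC61B and the ER membrane gene WFS1 had log2 differences of -0.03, -0.05 and 0.00 between both clones and mock. With 10 arrays, limma called 6 of the 39 genes in this comparison (15.4%, beside 13.1% of all genes): HERPUD1, EDEM2, CHAC1 and SEL1L higher, and PDIA4 and CREB3L2 lower. CREB3L2, a membrane-bound factor cut like ATF6, had a log2 difference of -0.21 ± 0.06 (SE, limma adjusted p = 0.0277).

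Each clone was next set against mock on its own. With 12 arrays, limma called HERPUD1 and CHAC1 higher and PDIA4 lower in clone 8 (3 of 39, 7.69%, beside 5.09% of all genes). In clone 7 it called HERPUD1 and EDEM2 higher (5.13%, beside 3.14% of all genes). The count in clone 8 fell to 0 without mock replicate 2 or 3 and to 1 without mock replicate 1 or clone 8 replicate 1. The count in clone 7 fell to 0 on leaving out any 1 mock array or clone 7 replicate 1 or 2. None of the 39 reached 1.5-fold in either clone, which 0.76% of all genes did in clone 8 and 0.7% in clone 7. With 10 arrays there were 6 calls in clone 8 (15.4%, beside 13.7% of all genes) and 5 in clone 7 (12.8%, beside 14.3%). HERPUD1 was on both of these lists. In clone 8 the others were PDIA6 (0.26 ± 0.06, log2, SE) higher and CREB3L2 (-0.35 ± 0.07), PDIA4 (-0.33 ± 0.06), EIF2AK3 (-0.27 ± 0.07) and DERL2 (-0.27 ± 0.06) lower. In clone 7 they were SEL1L (0.50 ± 0.09), DDIT3 (0.49 ± 0.11), EDEM2 (0.45 ± 0.07) and CHAC1 (0.25 ± 0.06), all higher. Both comparisons share the mock arrays, so the test of the difference is the direct one between the clones.

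Clone 8 was set directly against clone 7 to see whether the clones differ from each other. With all 12 arrays as labelled limma called 0 of the 39 genes (1 at an unadjusted p under 0.05) and 0% of all genes, also with the 1.5-fold limit (0%). With 10 arrays it called 8 of the 39 (20.5%, beside 17.2% of all genes). These 8 were named after their values were seen. The UPR factor gene DDIT3 and the ER degradation gene SEL1L were lower in clone 8 by the largest amounts, with log2 differences of -0.57 ± 0.12 (SE, limma adjusted p = 0.00639) and -0.47 ± 0.10 (limma adjusted p = 0.0059). Also lower in clone 8 were the PERK gene EIF2AK3 (-0.29 ± 0.07), CREB3L2 (-0.29 ± 0.07), EDEM2 (-0.26 ± 0.08), DERL2 (-0.23 ± 0.07) and PDIA4 (-0.20 ± 0.06). PDIA6, a disulfide isomerase that acts on IRE1 and PERK, was the only gene of the list called higher, by 0.28 ± 0.07 (limma adjusted p = 0.0171).

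The array values show how the labels bear on this. PDIA6 had log2 levels of 13.13, 13.22 and 12.77 in clone 8 and 12.91, 12.87 and 13.22 in clone 7, against 12.86, 12.92 and 12.97 in mock. CREB3L2 had log2 levels of 10.70, 10.80 and 11.23 in clone 8 and 11.01, 11.07 and 10.76 in clone 7, against 11.18, 11.10 and 11.03 in mock. In both genes replicate 3 of each clone lay nearer to the values of the other clone than to its own. For the chaperone partner DNAJB11 the log2 levels were 11.52, 11.56 and 11.21 in clone 8 and 11.33, 11.37 and 11.57 in clone 7, against 11.37, 11.37 and 11.38 in mock. For EDEM1 they were 11.04, 11.17 and 10.68 in clone 8 and 10.91, 10.90 and 11.25 in clone 7, against 10.98, 10.95 and 10.91 in mock. Here too the replicate 3 arrays lay nearer to the other clone, but neither gene, each named after its values were seen, was called between the clones with 10 arrays. DDIT3, SEL1L and EIF2AK3 were, like CREB3L2, higher on clone 7 replicates 1 and 2 than on clone 8 replicates 1 and 2, the reverse of PDIA6. Over the 39 genes the median SD of 3 arrays was 0.10 in clone 8 and 0.08 in clone 7, against 0.04 in mock and 0.05 in wild-type cells (log2). It was 0.06 for clone 8 replicates 1 and 2 and 0.03 for clone 7 replicates 1 and 2.

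**Figure D4:**
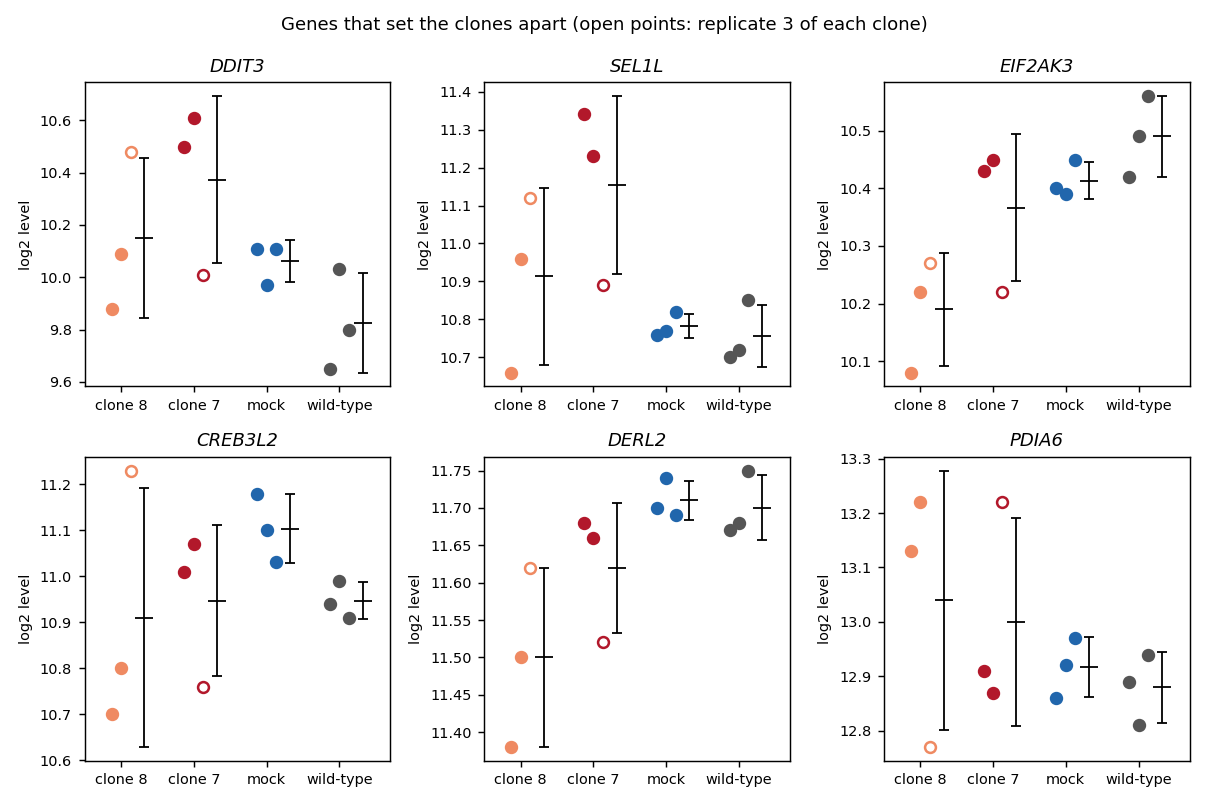
Log2 level of DDIT3, SEL1L, EIF2AK3, CREB3L2, DERL2 and PDIA6 (vertical axes) on each array by group (horizontal axes), with the mean and SD of 3 arrays as a bar and open points for replicate 3 of each clone. DDIT3 is at 9.88 and 10.09 on the filled points of clone 8 and at 10.50 and 10.61 on those of clone 7, while the open points lie at 10.48 and 10.01.

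Mock was set against wild-type cells to see what transfection and selection with the empty vector go with. With 12 arrays limma called 0 of the 39 genes, beside 2.24% of all genes (0.673% with the 1.5-fold limit). At an unadjusted p under 0.05 there were 3 (7.69%, beside 12.1% of all genes), TRIB3 (log2 difference 0.31 ± 0.09, SE), WFS1 (0.24 ± 0.07) and XBP1 (-0.20 ± 0.07). With 10 arrays, which changes only the estimate of the spread, it called TRIB3 (limma adjusted p = 0.045) and WFS1 (limma adjusted p = 0.0357), beside 7.07% of all genes. TRIB3 was also called on leaving out clone 8 replicate 1 alone.

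Both clones were also set against wild-type cells. Limma called 5 of 39 with 12 arrays (12.8%, beside 9.95% of all genes), all higher in the clones, and 18 had an unadjusted p under 0.05 (46.2%, beside 25.1% of all genes). None passed the 1.5-fold limit, which 1.58% of all genes did. EDEM2 (log2 difference 0.45 ± 0.07, SE, limma adjusted p = 0.00182) and HERPUD1 were called here as they were against mock. TRIB3 (0.30 ± 0.08, limma adjusted p = 0.0351), the BiP partner gene DNAJC3 (0.25 ± 0.07, limma adjusted p = 0.0453) and WFS1 (0.24 ± 0.06, limma adjusted p = 0.0183) were called only against wild-type cells, and each lost its call on leaving out any 1 wild-type array (limma adjusted p 0.0645 to 0.207). TRIB3 and DNAJC3 also lost it without any 1 mock array (0.0527 to 0.0685) or clone 7 replicate 1 or 2 (0.0586 to 0.0803), and DNAJC3 without clone 7 replicate 3 (0.0667). The count of 5 was 2 without any 1 wild-type array, 3 without any 1 mock array or clone 7 replicate 1 or 2, and 6 or 7 without the other clone arrays in turn. HERPUD1 and EDEM2 were called in each of these. Whether these differences exceed those against mock is the comparison of mock with wild-type cells given above, where they were not called with 12 arrays.

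WFS1, mutated in Wolfram syndrome, had log2 levels of 11.40, 11.48 and 11.51 in clone 8 and 11.41, 11.35 and 11.48 in clone 7, against 11.54, 11.41 and 11.36 in mock and 11.16, 11.21 and 11.22 in wild-type cells. All 9 transfected cultures were above all wild-type cultures. How many of all genes split in this way was not counted. With 10 arrays limma called 10 of the 39 genes against wild-type cells (25.6%, beside 17.1% of all genes), 9 higher and EIF2AK3 lower. HSPA5 (0.16 ± 0.05, log2, SE) and DNAJB9 (0.22 ± 0.07) were among them. A test for any difference among the 4 lines called HERPUD1 (limma adjusted p = 0.00315) and EDEM2 (limma adjusted p = 0.00531) with 12 arrays, beside 8.45% of all genes, and 12 of the 39 genes with 10 arrays, beside 28.4%. The 12-array count of 2 was 6 without clone 7 replicate 3 and 5 without clone 8 replicate 2.

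The wider pathway was described with 6 further lists, of which 217 genes were measured. Between both clones and mock limma called 13 of them (5.99%, beside 6.38% of all genes), 6 higher and 7 lower, with 0 past 1.5-fold and a median log2 difference of -0.02. The targets of ATF4 and the integrated stress response held 6 of these calls among 38 genes, split evenly by direction. KLHL24 (0.40 ± 0.06, log2, SE), the sestrin gene SESN2 (0.30 ± 0.06) and the stress factor gene ATF3 (0.51 ± 0.11) rose. PHGDH, the entry enzyme of serine synthesis (-0.34 ± 0.07), PYCR1 of proline synthesis (-0.21 ± 0.05) and the glutamine carrier gene SLC1A5 (-0.22 ± 0.06) fell. CHAC1 of the main list, also an ATF4 target, rose like KLHL24, SESN2 and ATF3. The activity of ATF4 was not tested.

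SESN2 had log2 levels of 9.41, 9.41 and 9.56 in clone 8 and 9.42, 9.60 and 9.41 in clone 7, against 9.23, 9.15 and 9.12 in mock and 8.96, 8.91 and 8.99 in wild-type cells. PHGDH had log2 levels of 11.29, 11.48 and 11.47 in clone 8 and 11.61, 11.64 and 11.38 in clone 7, against 11.86, 11.83 and 11.76 in mock and 11.83, 11.82 and 11.81 in wild-type cells. In neither gene did the clones overlap the controls. Of 38 other folding enzymes and chaperones limma called 0 (8 at an unadjusted p under 0.05, 21.1%, beside 20.0% of all genes, and 2 called with 10 arrays, 5.26%, beside 13.1% of all genes). Of 37 other ER degradation genes UBXN8 rose (0.24 ± 0.05), and of 42 genes of translocation and glycosylation ALG6 rose (0.33 ± 0.07) and SRP9 fell (-0.26 ± 0.06). The coat gene SEC24D (-0.31 ± 0.06) and ARFGAP3 (-0.28 ± 0.07) fell among 37 genes of ER to Golgi traffic. Among 25 signalling genes TXNIP rose (0.35 ± 0.07) and STK39 fell (-0.25 ± 0.05).

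**Figure D5:**
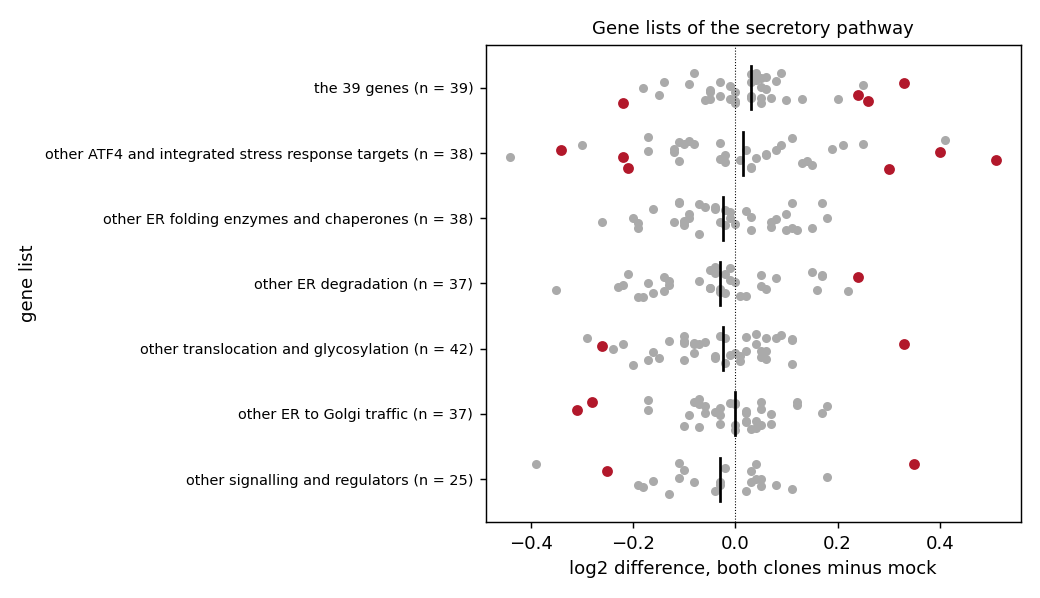
Log2 difference between both clones and mock (horizontal axis) for each measured gene of the main list and of the 6 further lists (vertical axis), with called genes in red and the median of each list as a black line. The medians lie between -0.03 and 0.03, and the called genes of the ATF4 list lie on both sides of 0.

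With 10 arrays the count for these 217 genes was 31 (12 higher, 19 lower, 14.3%, beside 13.1% of all genes). Between clone 8 and clone 7 it was 54 (15 higher in clone 8, 39 lower, 24.9%, beside 17.2% of all genes). In that comparison 12 of 38 ATF4 and integrated stress response targets were lower in clone 8 and 3 higher. The share of all genes in each direction is not given here, so these directions are not read as particular to the lists. The tryptophanyl-tRNA synthetase gene WARS1 had log2 levels of 11.08, 11.39 and 12.17 in clone 8 and 12.14, 12.20 and 11.42 in clone 7, against 11.54, 11.55 and 11.48 in mock. It differed between the clones by -0.94 ± 0.09 (log2, SE, 10 arrays), and SLC7A11, the cystine carrier gene, by -0.75 ± 0.08. Both were named after their values were seen.

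Across the 12 arrays, the genes whose log2 level ran most like that of HERPUD1 were TP53INP1 (Pearson r = 0.982), RETSAT (0.978), BICC1 (0.977), TCTN3 (0.976) and DDB2 (0.975). Within the list the closest were EDEM2 (0.90), CALR (0.78) and CHAC1 (0.78), and the most opposed was PDIA4 (-0.75). These values describe 12 arrays of 4 lines that share their group differences.

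Some markers of cell identity were called between both clones and mock, where 6.38% of all genes were called. Of 10 markers of glioblastoma lines, NES (log2 difference -0.73 between both clones and mock) and SOX2 (-0.32) were lower, and VIM (-0.05), CD44 (-0.04) and GFAP (0.12) were not called. The glioblastoma markers S100B (-0.03), OLIG2 (-0.04), FABP7 (0.05), AQP4 (0.13) and PDGFRA (0.11) were not called either. Of 4 neuronal markers STMN2 was higher than in mock (0.30), and SYP (-0.04), SNAP25 (0.05) and RBFOX3 (0.0) were not called. The mean log2 level of the glioblastoma markers ran between 8.76 and 8.94 over the clone 8 arrays and between 8.78 and 8.81 over the clone 7 arrays, against 8.90 to 8.92 over the mock arrays. For the neuronal markers it ran between 8.06 and 8.33 over the clone 8 arrays and between 8.07 and 8.15 over the clone 7 arrays, against 8.06 to 8.13 over the mock arrays. Between both clones and mock limma called 0 of 4 leukocyte, 5 endothelial, 5 epithelial and 5 fibroblast markers with 12 arrays (2 epithelial markers at an unadjusted p under 0.05). With 10 arrays the fibroblast marker COL1A2 was lower in clone 8 (log2 difference from mock -1.55) and higher in clone 7 (0.42), and PDGFRB was lower in clone 8 (-0.45) and not called in clone 7 (-0.03). The fibroblast marker LUM went the other way, being lower in clone 7 (-0.82) and not called in clone 8 (0.49). VIM was also lower in clone 8 with 10 arrays (-0.22) and not called in clone 7 (0.11). The leukocyte marker PTPRC was lower in clone 7 with 10 arrays (-0.45) and not called in clone 8 (-0.02).

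Against wild-type cells, with 12 arrays, the clones were lower in NES (-1.17), SOX2 (-0.59) and STMN2 (-0.49), so that STMN2 had the opposite sign to that against mock, and mock itself was lower than wild-type cells in STMN2 (-0.79). CD44 was higher (0.29), as were the leukocyte marker ITGAM (0.32) and the epithelial markers KRT8 (0.37) and KRT18 (0.23), while the leukocyte marker PTPRC (-0.63) and the fibroblast markers COL1A1 (-0.73) and COL1A2 (-1.61) were lower. Of these, limma also called KRT8 (0.48), COL1A1 (-0.72) and NES (-0.44) in mock against wild-type cells. The part of these markers in the differences of the stress genes was not tested.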

How the data were processed

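The authors deposited log2 levels of 33297 probe sets on each array, made with Partek per the labels, where no version is named. Summarization and normalization were not given in the sources used here. Array medians lay between 8.60 and 8.67, and no further normalization was applied. Clone 8 replicate 1 had the narrowest interquartile range (3.13 in log2 units), the next being 3.25 on clone 8 replicate 3. It correlated at 0.993 with clone 8 replicate 2, against 0.9986 between clone 7 replicates 1 and 2. The 10-array values of clone 8 rest on these replicates 1 and 2. Genes were named from probe sets with a single symbol (19460), keeping the probe set with the highest mean (2 of the 39 genes, ATF4 and P4HB, had more than 1). Members, lists and markers were chosen with earlier results of these data known. A linear model of 4 groups was fitted per gene with limma 3.58.1 (lmFit, eBayes) in R 4.3.3 (package data.table, version 1.17.8), and tested on simulated data. Both clones had equal weight in their mean. Genes given by array were the canonical readouts, the called genes and those with the largest called differences; others are said to be named after their values were seen. Arrays carry no count of reads, so precision is set by how many there were. Alternatives were other normalization, filters, priors, weights, probe set rules, fits of fewer groups, a replicate block and arrays left out.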

Additional observations from a re-analysis of the deposited data

Results flagged for a closer look

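With replicate 3 of each clone left out, 8 genes of the list differed between clone 8 and clone 7, that is, their differences from mock were unequal in the clones. These were SEL1L (log2 difference, clone 8 minus clone 7, -0.47, limma adjusted p = 0.0059), DDIT3 (-0.57, limma adjusted p = 0.00639), PDIA6 (0.28, limma adjusted p = 0.0171) and EIF2AK3 (-0.29, limma adjusted p = 0.0175). CREB3L2 (-0.29, limma adjusted p = 0.0183), DERL2 (-0.23, limma adjusted p = 0.0365), EDEM2 (-0.26, limma adjusted p = 0.043) and PDIA4 (-0.20, limma adjusted p = 0.0448) followed. The arrays left out were picked for their likeness to the other clone, and with all 12 arrays 0 of these were called by limma.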

How the results depend on the processing

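The direction of both clones against mock was kept for HERPUD1, EDEM2, CHAC1, PDIA4, SEL1L and EMC10 under all 21 alternatives, and HERPUD1 was called in each of them. The number of the 39 genes called moved more. Between both clones and mock it was 4, against 2 with only the groups compared in the fit, 2 (HERPUD1 and EDEM2) with the replicate block and 1 to 4 on leaving out each array. For clone 7 against mock it was 2, against 7 with array weights, 0 with the replicate block, 5 with 10 arrays and 0 to 3 on leaving out each array. For clone 8 against mock it was 3, against 0 with only the groups compared, 1 with the replicate block, 6 with 10 arrays and 0 to 4 on leaving out each array. For clone 8 against clone 7 it was 0, against 8 with 10 arrays and 0 to 0 on leaving out each array. For mock against wild-type cells it was 0, against 3 with only the groups compared, 3 with array weights, 2 with 10 arrays and 0 to 1 on leaving out each array. For both clones against wild-type cells it was 5, against 3 with only the groups compared, 9 with array weights, 10 with 10 arrays and 2 to 7 on leaving out each array. For any difference among the 4 lines it was 2, against 5 with quantile normalization, 4 with median centring, 4 without dim genes, 4 with a trended robust prior, 12 with array weights, 12 with 10 arrays and 2 to 6 on leaving out each array. With the 1.5-fold limit it was 0 in each comparison with a direction.

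CHAC1 differed between both clones and mock by 0.24 (log2) with only the groups compared (limma adjusted p = 0.0792) and by 0.24 with the replicate block (limma adjusted p = 0.067), and by 0.21 to 0.26 on leaving out each array (limma adjusted p 0.00691 to 0.147). SEL1L was called with array weights (0.30, limma adjusted p = 0.0125) and with 10 arrays (0.27, limma adjusted p = 0.0349), and spanned 0.20 to 0.32 on leaving out each array. Correlations of deviations between same-numbered arrays ran from -0.832 to 0.446, without a common sign. The lowest was between the replicate 3 arrays of the clones, whose labels and values disagreed. For the clones this check therefore cannot decide whether the cultures were paired. The labels give only a replicate number. Apart from the arrays left out by construction, the cause of these moves was not tested.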
